A study of Callithrix jacchus with 5 samples.

Results

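The genes described here are those that stood much higher in the induced pluripotent stem (iPS) cell library of common marmoset than in every other library of the series. Genes were chosen by their measured level: at least 20 CPM (the count over the column total of that library, scaled by 1000000) in the iPS library and at least 6 times the level in each of the other 4 libraries, with 0.1 CPM put in place of a zero. Of 30811 genes in the count table, 59 met these thresholds (0.191%). A further step left 6 of them out by name, so that 53 genes are described. The levels of all 5 libraries chose these genes, so their levels are given below as a description, with no test.

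RNA was sequenced from stem cells and fibroblasts of Callithrix jacchus, the common marmoset, a New World monkey used as a primate model. There is 1 library of iPS cells, which per the series title were derived from fibroblasts with reprogramming factors delivered as RNA. It is set against 3 libraries of embryonic stem (ES) cells, from the lines named No40, DSY127 and No20 with P numbers of 63, 17 and 45 in their titles, and against 1 library of fibroblasts named E01F with a P number of 1. The iPS and fibroblast groups are 1 library each, and the labels do not say whether the iPS cells came from the fibroblasts that were sequenced, nor give a P number for them.

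Reprogramming returns a differentiated cell to a state like that of the early embryo, and iPS lines are usually judged by how closely their transcripts match those of ES lines. Genes that differ are of several kinds: developmental regulators that mark early differentiation, genes of the parent cell, and loci that vary from line to line. Another kind comes with the annotation: vertebrate genomes carry many intronless gene models, some of which are copies of spliced RNAs of other genes and share sequence with them. Reads counted on such models can be split between near-identical copies, which makes the values of such models less certain.

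The libraries differed in depth. The iPS library held 5746449 counts, against 46523012, 34111715 and 40825547 counts in ES lines No40, DSY127 and No20 and 58601185 counts in the fibroblast library. A count of 3 corresponded to 0.522 CPM in the iPS library, against 0.0645, 0.0879 and 0.0735 CPM across the ES lines and 0.0512 CPM in the fibroblast library. The cell labels were met by their defining genes. POU5F1 stood at 1324 CPM in the iPS library, against 1492, 1826 and 1212 CPM across the ES lines and 1.33 CPM in the fibroblast library. COL1A1, a fibroblast collagen, stood at 5067 CPM in the iPS library, against 1284, 546 and 915 CPM across the ES lines and 26426 CPM in the fibroblast library, so the iPS library lay between the ES and fibroblast levels for that gene. The part of such stromal transcripts in the results below was not tested. In bulk samples, fewer cells of a type and less RNA per cell cannot be told apart.

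The 53 genes split by structure. In 36 of them no gap longer than 100 bases separated the exon intervals of the gene model, and these are called compact. The other 17 had a longer gap, as genes with ordinary introns do, and are called spread. This split was made after the values had been seen. None of the 36 compact genes had a symbol in the gene name table, and they are identified by their Ensembl-style identifier, chromosome and nearest neighbours with a symbol. Neighbours are genes that do not overlap them, so a gene given between neighbours may also lie within the span of a longer gene. Of the 17 spread genes, 7 had a symbol: PABPC3, BRINP3, NFIA, MBD5, DGAT2, S1PR1 and ZBTB20.

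Compact structure was rare among genes at 20 CPM or more in the iPS library, a level that the rule also uses. Of 7452 genes at 20 CPM or more in the iPS library, 262 were compact (3.52%), and 36 of these 262 were among the 53 (13.7%). Of the 7190 spread genes at that level, 17 were (0.236%). The compact genes at that level were lower in the ES lines. Their medians were 26.5, 29.9 and 31.6 CPM in No40, DSY127 and No20, against 62.7, 61.6 and 62.5 CPM in the spread genes. The genes left out by name are not among the 53 either, so nothing is read from the difference between these shares. A single uninterrupted exon interval made up the model in 18 of the 36 compact genes. Their exonic length ran from 201 to 2761 bases with a median of 624.5 bases, against a median of 2055 bases in the 17 spread genes.

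**Figure D1:**
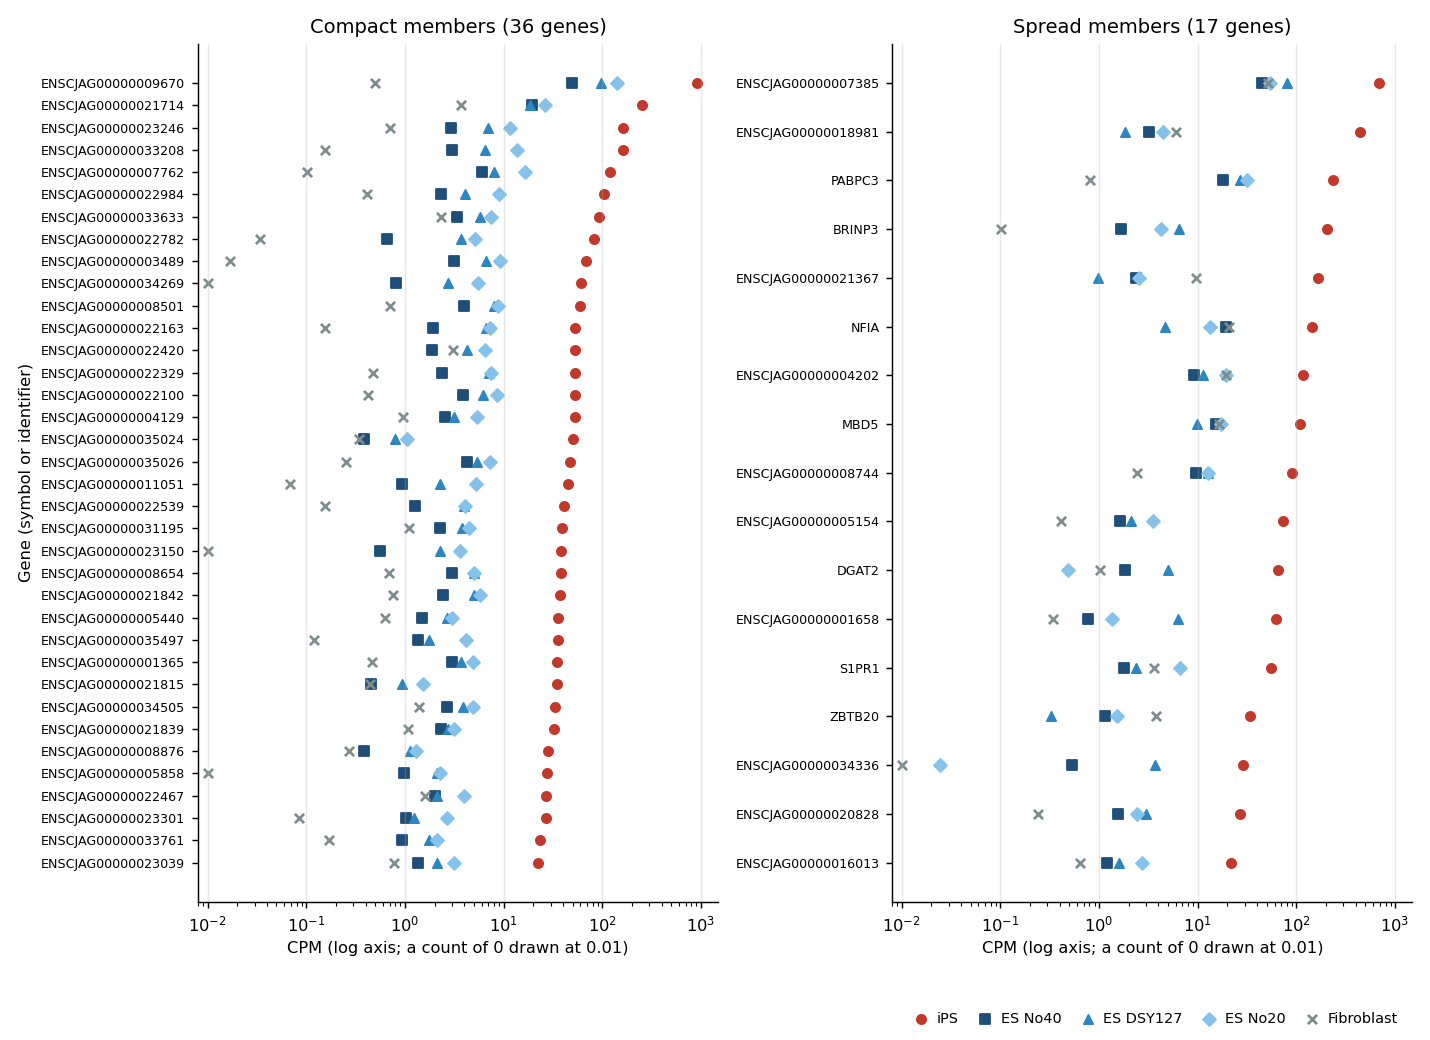
Level of each of the 53 genes in CPM, on a log axis, in the iPS library (red circles), ES lines No40, DSY127 and No20 (blue squares, triangles and diamonds) and the fibroblast library (grey crosses), with compact genes on the left and spread genes on the right. In the left panel 35 of 36 genes have the fibroblast library lowest, and in the right panel 8 of 17 do.

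Among compact genes the highest level was that of ENSCJAG00000009670, which lies on chromosome 2 from 108969783 to 108971523, on the minus strand, between CHD1 and RGMB (coordinates are those of the deposited files; their build is not stated in the sources at hand). It stood at 915 CPM in the iPS library (95% exact Poisson interval 890.3 to 939.9 CPM, counting error only), against 49.9, 96.8 and 143 CPM in ES lines No40, DSY127 and No20 and 0.495 CPM in the fibroblast library. The iPS library was high, the ES lines were intermediate and spread widely around their mean of 96.5 ± 46.4 CPM (SD, n = 3), and the fibroblast library was lowest. The iPS level was 9.48 times the ES mean and 6.41 times the highest ES line.

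The second compact gene, ENSCJAG00000021714, is a single interval of 411 bases on chromosome 3 from 153024040 to 153024450, between PGM2 and RELL1. It stood at 251 CPM in the iPS library, against 19.3, 18.5 and 26.3 CPM in ES lines No40, DSY127 and No20 and 3.70 CPM in the fibroblast library. This gene was the highest of all 53 per length, at 610.1 CPM per kb of exon in the iPS library against 51.96 CPM per kb as the ES mean. On the same scale the 36 compact genes had a median of 59.03 CPM per kb in the iPS library and 4.81 CPM per kb as the ES mean, and the 17 spread genes 56.9 and 1.60 CPM per kb. Per length, the median iPS levels of the 2 kinds were close, and the median ES level of compact genes was higher.

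Most other compact genes had the order of ENSCJAG00000009670, with the fibroblast library lowest and the ES lines rising from No40 over DSY127 to No20. The gene between ZNF484 and DAPK1 on chromosome 1 stood at 164 CPM in the iPS library, against 2.97, 6.95 and 11.8 CPM in ES lines No40, DSY127 and No20 and 0.700 CPM in the fibroblast library. The gene between IGSF11 and LSAMP on chromosome 15 stood at 163 CPM in the iPS library, against 2.99, 6.51 and 13.8 CPM across the ES lines and 0.154 CPM in the fibroblast library. The gene between SOWAHC and BUB1 on chromosome 14 stood at 119 CPM in the iPS library, against 6.08, 7.97 and 16.6 CPM across the ES lines and 0.102 CPM in the fibroblast library. In each of these the fibroblast library was lowest and No20 the highest ES line.

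Of the 36 compact genes, 33 stood in 1 and the same order below the iPS library: No20 above DSY127, DSY127 above No40, and No40 above the fibroblast library. The rule names no order among these 4 libraries, but it holds each of them to a level at least 6 times under that of the iPS library, so genes with a high fibroblast or ES level could not enter. The medians over the 36 genes were 45.9 CPM in the iPS library, against 2.31, 3.85 and 5.16 CPM in ES lines No40, DSY127 and No20 and 0.435 CPM in the fibroblast library. No20 was the highest ES line in 35 of the 36, and the fibroblast library was the lowest in 35. Of all 262 compact genes at 20 CPM or more in the iPS library, these 36 included, 89 had this order (34.0%), and of the 7190 spread genes at that level 771 had it (10.7%). Those shares come from genes without such a limit on the other libraries, so nothing is read from the difference.

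The 3 compact genes outside that order missed it narrowly or in 1 library. ENSCJAG00000021714, given above, had No40 slightly over DSY127. The gene between DNAJC16 and DDI2 on chromosome 7 stood at 37.9 CPM in the iPS library, against 2.99, 5.01 and 4.997 CPM across the ES lines and 0.683 CPM in the fibroblast library. The gene between BLOC1S5 and RLIM on chromosome X stood at 53.1 CPM in the iPS library, against 1.87, 4.28 and 6.47 CPM across the ES lines and 3.09 CPM in the fibroblast library, so that the fibroblast library lay above No40.

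**Figure D2:**
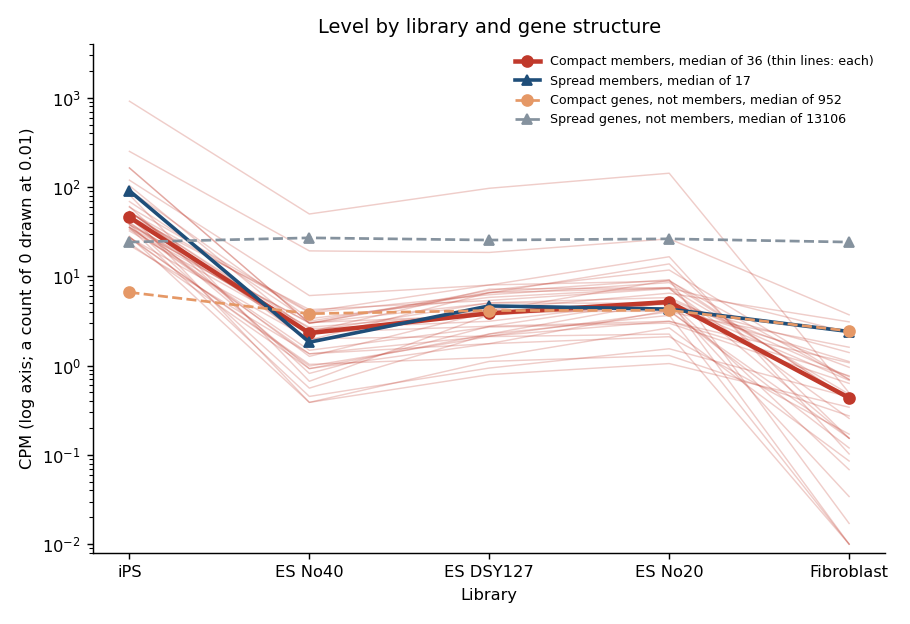
Level in CPM, on a log axis, by library for the 36 compact genes (thin red lines, with their median in bold), the median of the 17 spread genes (blue), and the medians of 952 compact and 13106 spread genes outside the set with a mean of 1 CPM or more over the 5 libraries (dashed). The median of the 36 compact genes steps up over the 3 ES lines. The dashed line of other compact genes is also highest in the iPS library, at 6.61 CPM. The mean that chose the dashed genes takes in the iPS library.

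The fold over the highest other library differed widely among compact genes. It ran from 6.18 to 47.7 with a median of 9.17. The largest belonged to ENSCJAG00000035024 on chromosome 9, a model of 3 intervals in 719 bases of which 684 are exonic, within the span of RNF10. It stood at 50.3 CPM in the iPS library, against 0.387, 0.792 and 1.05 CPM in ES lines No40, DSY127 and No20 and 0.341 CPM in the fibroblast library. The gene between RPS3A and DCLK2 on chromosome 3, within the span of LRBA, came next at 22.7 times. It stood at 35.0 CPM in the iPS library, against 0.451, 0.938 and 1.54 CPM across the ES lines and 0.444 CPM in the fibroblast library. The gene between CHMP2B and CADM2 on chromosome 21 was at 21.6 times, with 28.0 CPM in the iPS library against 0.387, 1.11 and 1.30 CPM across the ES lines and 0.273 CPM in the fibroblast library. These were the 3 compact genes at 20 times or more. Next in fold, and within the span of CNOT4, was the gene between NUP205 and STRA8 on chromosome 8. It stood at 81.8 CPM in the iPS library, against 0.666, 3.72 and 5.09 CPM across the ES lines and 0.0341 CPM in the fibroblast library. The gene between ATP2B1 and KITLG on chromosome 9 stood at 91.9 CPM in the iPS library, against 3.35, 5.80 and 7.42 CPM across the ES lines and 2.34 CPM in the fibroblast library.

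In 3 compact genes the fibroblast library had no count. The gene between SMURF2 and PPM1E on chromosome 5 stood at 60.6 CPM in the iPS library, against 0.817, 2.76 and 5.46 CPM in the ES lines. Against a floor of 3 counts in the fibroblast library it was at least 1183-fold higher in the iPS library. The corresponding bounds were 748-fold for the gene between RDH12 and RAD51B on chromosome 10 and 537-fold for the gene between MAN1A2 and GDAP2 on chromosome 7. The last of these stood at 27.5 CPM in the iPS library, against 0.989, 2.11 and 2.25 CPM across the ES lines. No gene of the 53 was without a count in any ES line, so none was detected in iPS cells alone.

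Outside the 53, a raised iPS level was more frequent in compact than in spread genes. Among genes outside the set with a mean of 1 CPM or more over the 5 libraries, the log2 ratio of the iPS library to the ES mean (0.5 CPM added to each) exceeded 1 in 242 of 952 compact genes (25.4%) and in 711 of 13106 spread genes (5.43%). Compact genes above a log2 ratio of 2 numbered 124. These 124 had medians of 10.9 CPM in the iPS library, against 0.634, 1.23 and 1.45 CPM in ES lines No40, DSY127 and No20 and 0.102 CPM in the fibroblast library. The order seen above held in 64 of the 124 (51.6%) and in 116 of the other 828 compact genes (14.0%). Of the 196 spread genes above a log2 ratio of 2, 20 had that order (10.2%). The mean of 1 CPM takes in the iPS library, so genes low elsewhere could enter through their iPS level. Genes above a log2 ratio of 2 were also picked by that level, so nothing is read from these shares. The ranges of the ES mean below do not use that filter.

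**Figure D3:**
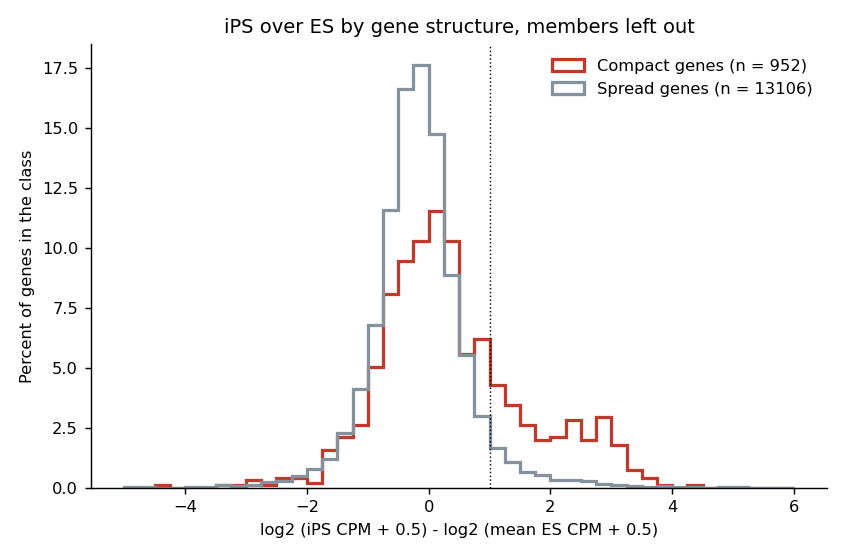
Distribution of the log2 ratio of the iPS library to the ES mean, with 0.5 CPM added to each, for 952 compact and 13106 spread genes with a mean of 1 CPM or more, the 53 left out; the vertical axis is the percent of genes of each kind. Compact genes have a longer tail to the right of the dotted line at 1, where 25.4% of them lie against 5.43% of spread genes. The mean that chose these genes takes in the iPS library.

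With the 53 genes left out, the share was also higher in compact genes within each of 4 ranges of the ES mean. For an ES mean from 1 to 3 CPM, the log2 ratio exceeded 1 in 25.6% of 316 compact genes and 9.42% of 1390 spread genes. For 3 to 10 CPM it did so in 17.5% of 234 compact and 7.42% of 2184 spread genes. For 10 to 30 CPM the shares were 16.1% of 192 compact and 3.97% of 3202 spread genes. For 30 to 100 CPM they were 8.25% of 97 compact and 3.06% of 3890 spread genes. From the lowest range to the highest, the median log2 ratio of compact genes was 0.26, 0.12, -0.14 and -0.24. In spread genes it was -0.09, -0.20, -0.20 and -0.19. From 10 CPM up, the typical compact gene was thus not higher in the iPS library. Of the 952 compact genes chosen by the mean over all 5 libraries, the iPS library included, 843 had no symbol. Of these 843, 233 exceeded 1 (27.6%), against 9 of 109 compact genes with a symbol (8.26%). The 952 compact genes outside the set took 2.85% of all counts in the iPS library, against 2.06%, 2.21% and 2.15% in ES lines No40, DSY127 and No20 and 1.60% in the fibroblast library. No sequence was compared, so whether compact models are copies of other genes was not tested.

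Among spread genes, PABPC3 resembled the compact ones. In human, PABPC3 is an intronless relative of PABPC1, which encodes the main cytoplasmic poly(A)-binding protein that coats messenger RNA tails. The marmoset model spans 45392259 to 45584908 on chromosome 16 and holds 2 exon intervals separated by 190631 bases, a stretch that contains other genes. PABPC3 stood at 233 CPM in the iPS library, against 18.0, 27.1 and 31.7 CPM in ES lines No40, DSY127 and No20 and 0.819 CPM in the fibroblast library. PABPC1 stood far higher, at 4842 CPM in the iPS library, against 2328, 2203 and 2242 CPM across the ES lines and 1456 CPM in the fibroblast library, or 2.14 times the ES mean in the iPS library. Reads of the 2 genes may have been shared between them, which was not tested.

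Besides PABPC3, 3 spread genes had the order of the compact ones, and their largest gaps were the 3 shortest among spread genes, at 131, 198 and 571 bases. Those with the 2 shortest gaps lie between TRIP4 and PIF1 on chromosome 10 and between NDUFB4 and LRRC58 on chromosome 15. The first of them stood at 72.4 CPM in the iPS library, against 1.63, 2.11 and 3.55 CPM across the ES lines and 0.410 CPM in the fibroblast library. None of the other 13 spread genes had that order.

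The 13 remaining spread genes were more varied. Among them were developmental regulators, signalling genes and enzymes, and in 7 the fibroblast library was above the ES mean. Over all 53 genes the fibroblast library exceeded the ES mean in these 7 only, against 31.6% of all genes at 20 CPM or more in the iPS library. The rule leaves out genes with a high fibroblast level, so nothing is read from that difference.

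The transcription factors were NFIA and ZBTB20. NFIA belongs to the nuclear factor I family, which binds DNA as dimers and is known for its role in glial differentiation. It spans 96401299 to 96793068 on chromosome 7 and stood at 143 CPM in the iPS library (Poisson interval 133 to 153 CPM, and likewise below), against 19.4, 4.66 and 13.4 CPM in ES lines No40, DSY127 and No20 and 21.0 CPM in the fibroblast library. The fibroblast library was the next highest, and the iPS level was 6.82 times that of the fibroblast library and 11.4 times the ES mean.

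The 2 other measured genes of the family, looked at after NFIA was known to be in the set, were also higher in the iPS library than in the ES lines. NFIX stood at 276 CPM in the iPS library, against 12.3, 9.85 and 20.8 CPM across the ES lines and 125 CPM in the fibroblast library. It rose against the ES lines by 4.31 on the log2 scale (adjusted p = 0.0367, edgeR quasi-likelihood test, Benjamini-Hochberg adjustment), with the iPS library above 3 of 3 ES lines. NFIX did not pass without No40 (adjusted p = 0.32), where no gene did, and its adjusted p ran from 4.12e-12 to 0.32 over the alternatives. NFIB stood at 246 CPM in the iPS library, against 17.5, 21.4 and 39.6 CPM across the ES lines and 230 CPM in the fibroblast library. NFIB did not pass (adjusted p = 0.0776 by the edgeR quasi-likelihood test, log2 fold change 3.28), with an adjusted p from 2.66e-06 to 0.32 over the alternatives. It passed with DESeq2, without the low-count filter and without No20. NFIX and NFIB are outside the set through their fibroblast levels alone.

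ZBTB20 encodes a zinc finger repressor with roles in hippocampal and liver development in mouse. It spans 81960982 to 82528220 on chromosome 15 and stood at 33.6 CPM in the iPS library (29.0 to 38.7 CPM), against 1.16, 0.322 and 1.52 CPM in ES lines No40, DSY127 and No20 and 3.79 CPM in the fibroblast library. The iPS level was 33.6 times the ES mean and 8.87 times that of the fibroblast library. The 23 other measured ZBTB genes had edgeR log2 fold changes against the ES lines from -4.80 to 0.91. Their median was -0.14, near the median of -0.11 over all genes fitted. The lowest, ZBTB42, had no count in the iPS library and an ES mean of 0.0974 CPM. That is under the 0.522 CPM of 3 counts in the iPS library. None of the 23 passed, at an unadjusted p under 0.05 either (0 of 23) or with DESeq2 (0 of 23).

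**Figure D4:**
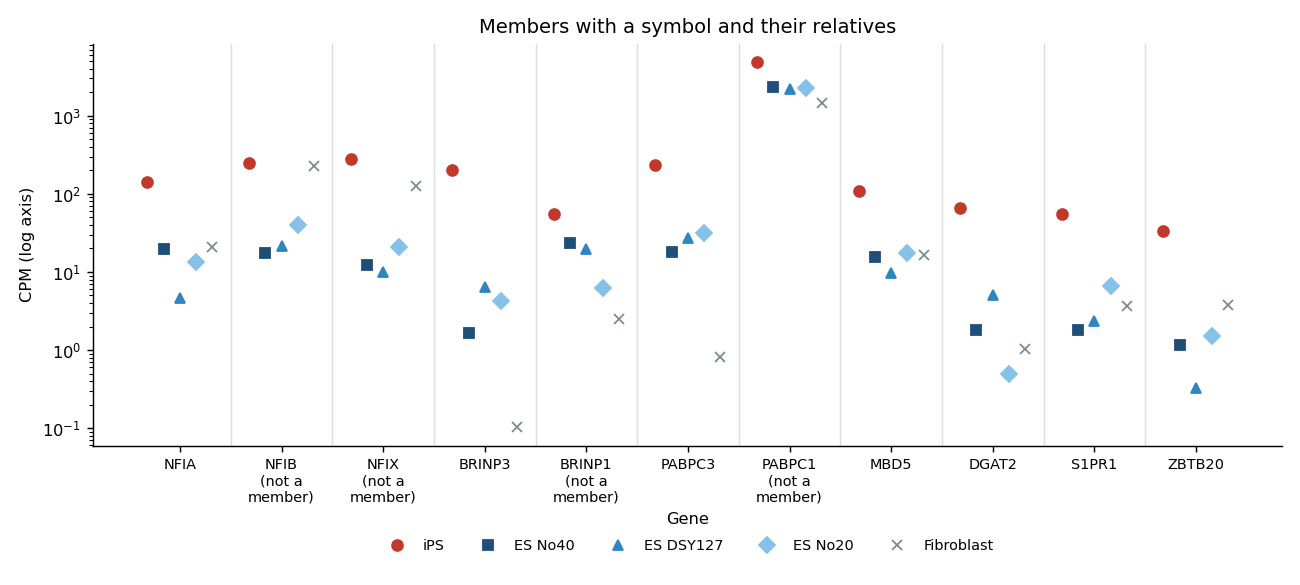
Level in CPM, on a log axis, of the 7 genes with a symbol and of 4 relatives outside the set (NFIB, NFIX, BRINP1 and PABPC1), in the iPS library (red), the 3 ES lines (blue) and the fibroblast library (grey). NFIB at 246 CPM in the iPS library and 230 CPM in the fibroblast library shows why it is outside the set.

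BRINP3 encodes a neural protein whose family was named for its induction by bone morphogenetic protein and retinoic acid. It spans 16236423 to 16625793 on chromosome 18 and stood at 204 CPM in the iPS library (192 to 216 CPM), against 1.68, 6.48 and 4.29 CPM in ES lines No40, DSY127 and No20 and 0.102 CPM in the fibroblast library. The iPS level was 31.5 times that of the highest ES line, DSY127, the largest such fold among genes with a symbol. Its relative BRINP1 stood at 55.9 CPM in the iPS library, against 23.7, 19.9 and 6.17 CPM across the ES lines and 2.53 CPM in the fibroblast library, and did not pass the edgeR test (adjusted p = 0.531 for a log2 fold change of 1.79).

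MBD5 encodes a protein with a methyl-CpG-binding domain, and its loss in human is linked to a neurodevelopmental disorder. It spans 71007846 to 71063706 on chromosome 6 and stood at 108 CPM in the iPS library (99.6 to 117 CPM), against 15.4, 9.73 and 17.2 CPM across the ES lines and 16.3 CPM in the fibroblast library. The iPS level was 7.64 times the ES mean and 6.27 times the highest other library. MBD1 and MBD4 stood at 53.1 and 29.9 CPM in the iPS library, against ES means of 56.1 ± 4.56 and 27.4 ± 0.396 CPM (SD, n = 3). MBD6 stood at 129 CPM in the iPS library, against 39.8, 48.4 and 55.2 CPM across the ES lines and 87.6 CPM in the fibroblast library, and did not pass (adjusted p = 0.207 for a log2 fold change of 1.47, edgeR quasi-likelihood test), though it did with DESeq2.

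Of the signalling and metabolic genes, S1PR1 encodes a G protein-coupled receptor for the lipid sphingosine-1-phosphate, known for its part in vessel formation and lymphocyte exit from lymph nodes. It spans 137592323 to 137597063 on chromosome 7 and stood at 54.8 CPM in the iPS library (48.9 to 61.2 CPM), against 1.78, 2.37 and 6.59 CPM in ES lines No40, DSY127 and No20 and 3.62 CPM in the fibroblast library. The iPS level was 15.3 times the ES mean, and No20 was the highest of the others. Of 5 other measured genes of this lipid's receptors, synthesis, breakdown and export, looked at after the receptor was known to be in the set, none passed in either direction (log2 fold changes of -0.04 and below, edgeR quasi-likelihood test). Of the 5, 0 had an unadjusted p under 0.05 and 0 passed with DESeq2. The lowest fold change, -7.52, was that of SPNS2, with no count in the iPS library and an ES mean of 0.663 CPM. That is near the 0.522 CPM of 3 counts in the iPS library. S1PR2, a second receptor, stood at 2.44 CPM in the iPS library, against 8.19, 3.20 and 2.79 CPM across the ES lines and 17.8 CPM in the fibroblast library. SPHK1, a kinase that makes the lipid, stood at 11.8 CPM in the iPS library, against 20.03, 19.6 and 15.2 CPM across the ES lines and 23.8 CPM in the fibroblast library.

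DGAT2 encodes an enzyme of the last step of triglyceride synthesis. It spans 62917338 to 62949191 on chromosome 11 and stood at 65.1 CPM in the iPS library (58.7 to 72.03 CPM), against 1.83, 5.04 and 0.490 CPM in ES lines No40, DSY127 and No20 and 1.02 CPM in the fibroblast library. The ES lines differed widely from one another, with DSY127 highest and No20 under the fibroblast library, and the iPS level was 12.9 times that of DSY127. DGAT1, the unrelated enzyme of the same step, stood at 46.3 CPM in the iPS library, against 59.97, 52.01 and 30.2 CPM across the ES lines and 31.5 CPM in the fibroblast library. Of 12 other measured genes of triglyceride synthesis 10 entered the fit, with a median log2 fold change against the ES lines of -0.93, and none passed in either direction (edgeR quasi-likelihood test). Of the 10, 3 were lower at an unadjusted p under 0.05 and 0 with DESeq2. Over all 17462 genes fitted, 547 were lower at that unadjusted p.

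Among the spread genes without a symbol was the highest fold. ENSCJAG00000018981 lies on chromosome 20 from 33664555 to 33671246, on the minus strand, between WWOX and DYNLRB2, in 5 exon intervals. It stood at 443 CPM in the iPS library (426 to 461 CPM), against 3.25, 1.85 and 4.41 CPM in ES lines No40, DSY127 and No20 and 6.02 CPM in the fibroblast library. The iPS level was 139.9 times the ES mean and 73.6 times that of the fibroblast library, which was the highest of the others. Both the fold over the ES mean and the fold over the highest other library were the largest of the 53.

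ENSCJAG00000021367 lies on chromosome 4 from 22638201 to 22648006, between F13A1 and FARS2, in 4 exon intervals. It stood at 165 CPM in the iPS library, against 2.39, 0.967 and 2.55 CPM across the ES lines and 9.54 CPM in the fibroblast library, or 83.8 times the ES mean. ENSCJAG00000007385 lies on chromosome 7 from 123213363 to 123234760, between SH3GLB1 and PKN2, in 7 exon intervals. It stood at 685 CPM in the iPS library, against 44.6, 80.3 and 54.6 CPM across the ES lines and 51.3 CPM in the fibroblast library, so that the other 4 libraries lay close together and the iPS library was 8.54 times the highest of them.

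In 3 further spread genes without a symbol DSY127 was the highest of the other libraries. The gene between MYBPC1 and GNPTAB on chromosome 9, in 9 exon intervals, stood at 62.8 CPM in the iPS library, against 0.774, 6.36 and 1.35 CPM in ES lines No40, DSY127 and No20 and 0.341 CPM in the fibroblast library. The gene between GJD4 and BLOC1S4 on chromosome 7, also in 9 exon intervals, stood at 28.7 CPM in the iPS library, against 0.537, 3.72 and 0.0245 CPM across the ES lines and no count in the fibroblast library. The gene between RMDN3 and KNL1 on chromosome 10 stood at 26.8 CPM in the iPS library, against 1.57, 2.99 and 2.42 CPM across the ES lines and 0.239 CPM in the fibroblast library.

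Position was not used to choose the genes. They lie on 19 of 24 chromosomes. Chromosome 7 held 11 and chromosome 4 held 7, or 2.19% and 1.84% of the genes there at 20 CPM or more in the iPS library, against 0.711% over all chromosomes. Only 2 of the 53 had another among the 2 flanking genes on either side. Both are compact and lie between TGFBR3 and BRDT on the minus strand of chromosome 7, from 128099481 to 128100545 and from 128119321 to 128119521. The first stood at 32.2 CPM in the iPS library, against 2.34, 2.76 and 3.14 CPM across the ES lines and 1.08 CPM in the fibroblast library. The second stood at 47.2 CPM in the iPS library, against 4.23, 5.36 and 7.27 CPM across the ES lines and 0.256 CPM in the fibroblast library.

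Genes beside or around the 53 did not share their level. Of 208 flanking genes outside the set, 83 had a mean of 1 CPM or more, with a median log2 ratio of the iPS library to the ES mean of -0.13 and 6.02% above 1. All other genes at that level had a median of -0.16 and 6.78% above 1. In 18 cases the gene lay within the span of a longer gene, in 15 of them on the opposite strand. The 18 enclosing genes had log2 ratios from -0.72 to 1.64 with a median of 0.11, and the genes inside them from 2.91 to 5.35 with a median of 3.50. RNF10, which encloses ENSCJAG00000035024 on the same strand, stood at 268 CPM in the iPS library, against 237, 296 and 293 CPM across the ES lines and 228 CPM in the fibroblast library. CNOT4 and NFAT5 were the enclosing genes above a log2 ratio of 1. CNOT4 encloses the gene between NUP205 and STRA8, and NFAT5 that between TERF2 and NOB1. CNOT4 stood at 111 CPM in the iPS library, against 32.9, 37.4 and 35.5 CPM across the ES lines and 37.97 CPM in the fibroblast library. No source used here states the strand setting of the counting, so reads of an enclosing gene and of a gene inside it cannot be told apart.

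**Figure D5:**
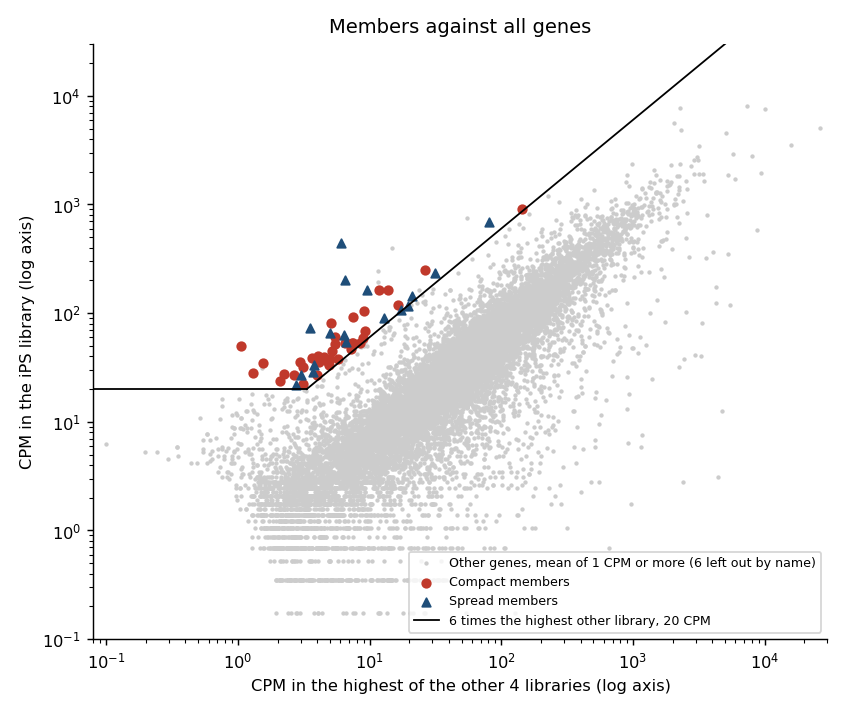
Level in the iPS library against the level in the highest of the other 4 libraries, in CPM on log axes, for compact genes of the set (red circles), spread genes of the set (blue triangles) and other genes with a mean of 1 CPM or more (grey). The black line marks 20 CPM and 6 times the highest other library; many genes of the set lie close above it, and the median fold is 8.81.

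The thresholds cut through a continuous range. Just inside the fold were the gene between ADGRL3 and NOA1 on chromosome 3 at 6.05 times, that between TERF2 and NOB1 on chromosome 20 at 6.18 times and MBD5 at 6.27 times. Just outside it were the genes between DNER and TRIP12 on chromosome 6 at 5.90 times, between AAGAB and MAP2K5 on chromosome 10 at 5.89 times and between PTPDC1 and FBP2 on chromosome 1 at 5.79 times. Among those just inside the level were the gene between CLASP1 and NIFK on chromosome 6 at 22.3 CPM and that between ESPL1 and MYG1 on chromosome 9 at 23.5 CPM. Just outside it were the genes between HMGXB4 and HMOX1 on chromosome 1 at 19.7 CPM, between GDNF and NUP155 on chromosome 2 at 17.9 CPM and between GDA and ABHD17B on chromosome 1 at 17.75 CPM. For 10 of the 53 genes the lower bound of the Poisson interval of the iPS count fell under a threshold. A fold of at least 10 was reached by 20 genes and of at least 20 by 6 genes.

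The whole table was also fitted for the iPS library against the ES lines, where 19 of 17462 genes passed at an adjusted p under 0.05 (0.109%; edgeR quasi-likelihood test). All 53 genes entered the fit and 6 passed, all higher. The rule used this contrast, so nothing is read from that count. The 6 are ENSCJAG00000018981, ENSCJAG00000021367, ENSCJAG00000007385, ENSCJAG00000021714, ENSCJAG00000035024 and the gene between TRIP4 and PIF1. None of the 6 passed without No40, where no gene did. Without No20, 52 of the 53 passed, as did 268 of all 17185 genes fitted. Nothing is read from these counts either.

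The 15 lists of cell type and pathway genes are by symbol, so only the 7 genes with a symbol could be on one, and none of the 7 was. Of 20 fitted fibroblast and stroma genes 3 rose against the ES lines, COL12A1, COL1A2 and PRRX1, with a list median of 0.25 on the log2 scale (8 at an unadjusted p under 0.05 and 7 with DESeq2). COL12A1, a fibril-associated collagen, stood at 331 CPM in the iPS library, against 15.3, 16.2 and 17.9 CPM across the ES lines and 2652 CPM in the fibroblast library. COL1A2, a chain of type I collagen, stood at 3549 CPM in the iPS library, against 279, 273 and 245 CPM across the ES lines and 15961 CPM in the fibroblast library. All 3 genes lay above every ES line in the iPS library. PRRX1, a mesenchymal homeobox factor, stood at 401 CPM in the iPS library, against 32.8, 23.2 and 35.4 CPM across the ES lines and 141 CPM in the fibroblast library. It rose by 3.76 on the log2 scale (adjusted p = 0.0349, edgeR quasi-likelihood test) and did not pass without No40, where no gene did. The summed level of the 20 measured genes of that list was 15168 CPM in the iPS library, against 6830, 4825 and 5617 CPM across the ES lines and 85354 CPM in the fibroblast library. On the other 14 lists none of 192 fitted entries passed (8 higher and 17 lower at an unadjusted p under 0.05, and 4 higher and 7 lower with DESeq2). A gene on more than 1 list is counted on each. Over all 17462 genes fitted, 971 were higher and 547 lower at an unadjusted p under 0.05 (edgeR quasi-likelihood test). With DESeq2, 349 of 15430 genes were higher and 67 lower. Medians of these 14 lists ran from -2.80 for trophoblast and amnion genes to 0.85 for germline and early embryo genes. That of core pluripotency genes was 0.03. The ES lines differed widely on the lists with the lowest and highest median. Trophoblast and amnion genes summed to 135 CPM in the iPS library, against 105, 367 and 33.6 CPM across the ES lines. Germline and early embryo genes summed to 673 CPM, against 302, 755 and 8.94 CPM across the ES lines.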

How the data were processed

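RNA was extracted with an RNeasy Mini kit and sequenced after Illumina library preparation, per the labels' protocols. The deposited values are raw counts of reads for each gene. The 5 library files were identical to their columns in the series table. The submitters' processing notes name featureCounts 1.5.2, Trim Galore 0.4.0 and STAR 2.5.3a. No source used here states the build or the strand and multi-mapping settings. Of 30811 identifiers 12660 (41.1%) matched a symbol.

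CPM are counts over column totals. Exon intervals of each gene model were merged and a gene was compact when no gap exceeded 100 bases. Counts were fitted in R 4.3.3 with edgeR 4.0.16 (filterByExpr, TMM, glmQLFit, all 5 libraries in 3 groups, 2 residual degrees of freedom). Only ES lines are replicated, so the lone iPS library is assumed to vary like an ES line. P-values rest on the spread among the 3 ES lines and were adjusted over all genes fitted. The fit was also run on simulated counts, where all libraries shared the ES mean and the same spread, apart from changes planted in the iPS library. That run checked the direction of the planted changes. It does not show how the fit performs on these data. Alternatives used other scalings, DESeq2 1.42.0, other thresholds and leaving out each ES line. Intervals are 95% exact Poisson intervals, and intervals and floors of 3 counts cover counting error only.

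Members and lists were chosen with earlier results of these data known. Named with all 5 libraries were the genes with a symbol, the 12 largest folds over the highest other library, the 5 highest without a symbol, the flanking pair and list genes past the threshold. The compact and spread classes, further examples, gene relatives and enclosing genes were picked once values were known. The 6 genes left out by name are not reported here.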

Additional observations from a re-analysis of the deposited data

How the results depend on the processing

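The number of genes in the set stayed between 52 and 58 with TMM totals, DESeq2 size factors, upper-quartile factors or a floor of 3 counts, and was 43 with the lower Poisson bound. It fell to 20 at a fold of at least 10 and to 30 at 50 CPM or more. It ran from 57 to 78 when 1 ES line was left out, which can only keep or add genes. Calls of the whole fit numbered 19, against 204 without a low-count filter (198 higher and 6 lower) and 416 with DESeq2 (349 higher and 67 lower). Leaving out 1 ES line gave 0 (without No40) to 268 calls (without No20), and 41 without DSY127. Of the 53 genes, 6 were called, against 52 without the low-count filter, 52 with DESeq2 and 0 to 52 when 1 ES line was left out. The cause was not tested. The count of compact genes ran from 29 to 38 over other definitions of compactness and TMM totals. It ran from 36 to 50 when 1 ES line was left out, which again can only keep or add genes. The order of libraries in compact genes held in 30 of 36 with TMM totals. The genes with the fibroblast library above the ES mean (6 to 8), the flanking pair and the largest chromosome share changed little under the alternatives run. No paired analysis was possible because the iPS and fibroblast groups hold 1 library each. The iPS depth, at 0.522 CPM for 3 counts, limits what can be said of low genes in that library.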
